A study of Mus musculus with 16 samples.

Results

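The genes described here are 10 mouse genes of the NRF2 response: Nfe2l2, which encodes the transcription factor NRF2 itself, and its target genes Hmox1, Nqo1, Txnrd1, Srxn1, Prdx1, Slc7a11, Gclc, Gclm and Osgin1. They were chosen by name with earlier results of these data known, as were the lists of further genes below. Each symbol was found on a row of the deposited count table. The members are 10 of its 56941 genes and 10 of the 16306 genes tested. All 10 passed the filter on low counts. Primary murine gingival fibroblasts (mGF), grown out of gum tissue of WT C57Bl6 mice aged 3 to 6 months, were used between passages 2 and 8, in medium with 20% fetal bovine serum. They were exposed for 24 h to BSA, the carrier protein and vehicle, to IL-1β at 1 ng/mL, to palmitate at 200 µM in complex with BSA, or to palmitate + IL-1β at the same doses, so that BSA was present in each group as vehicle or carrier. Bulk RNA was sequenced in 16 libraries, 4 for each of the 4 groups. Libraries are numbered 1 to 4 for BSA, 5 to 8 for IL-1β, 9 to 12 for palmitate and 13 to 16 for palmitate + IL-1β. The sources do not state whether the libraries of a group came from separate cultures or animals, so p-values measure the spread between these samples, which may be technical.

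Between 21234789 and 92752515 counts fell on genes in a library. Palmitate replicate 10 held the highest total and stood apart, as no other library exceeded 35329711. Levels are given as CPM, counts scaled to a common library size with TMM factors, and the mean is given ± SD over 4 libraries. Of 9 fibroblast markers, all were tested, and their summed level was 32610 ± 925 CPM in BSA, 33450 ± 214 CPM in IL-1β, 30620 ± 976 CPM in palmitate and 29690 ± 901 CPM in palmitate + IL-1β, with Col1a1 the most abundant. The sum hides a wide range, as in BSA Col1a1 stood at 14190 ± 346 CPM and Lum at only 1.82 ± 0.184 CPM. The 8 macrophage and leukocyte markers summed to between 3.15 and 3.76 CPM in the group means, with Csf1r the most abundant and Tyrobp at 0 in all 16 libraries. Epithelial markers (5 genes, led by Cdh1) summed to at most 0.505 CPM and endothelial markers (5 genes, led by Cdh5) to at most 1.52 CPM in a group mean. Bulk counts cannot tell fewer cells that express a gene from less RNA per cell.

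NRF2 is held in the cytoplasm by KEAP1, which directs it to degradation through a CUL3 ubiquitin ligase. When oxidants or electrophiles modify KEAP1, NRF2 accumulates, enters the nucleus, pairs with small MAF proteins and binds antioxidant response elements of genes for glutathione synthesis, thioredoxin recycling, haem breakdown and quinone reduction. In the gingiva, fibroblasts are the main cells of the connective tissue and meet oxidants during inflammation.

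The mean level of each of the 10 genes was lowest in BSA and highest in palmitate + IL-1β. As a ratio of the highest to the lowest group mean, Slc7a11 spanned the widest range of the 10 and Nqo1 the narrowest. For 8 genes the palmitate mean lay above the IL-1β mean, and for Hmox1 and Osgin1 it lay below.

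**Figure D1:**
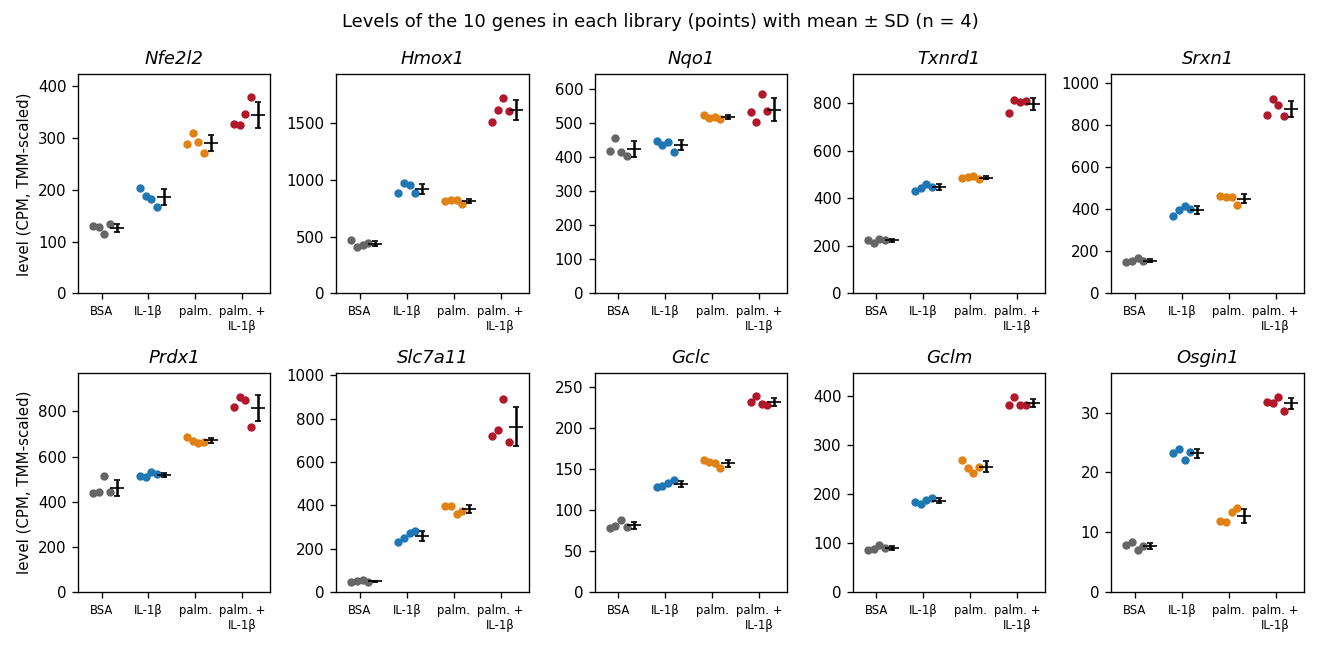
Level (CPM, linear axis from 0) of each of the 10 genes in each library (points) of the 4 groups, with the mean ± SD (n = 4) beside the points. Slc7a11 rises from 49 ± 4.36 CPM in BSA to 762 ± 89.1 CPM in palmitate + IL-1β, while the group means of Nqo1 lie between 424 and 540.1 CPM.

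Nfe2l2 (ENSMUSG00000015839.7, chr2:75504739-75534985 on the minus strand of GRCm39) stood at 129.8, 127, 114 and 133 CPM in the BSA libraries and at 204, 189, 183 and 167 CPM in the IL-1β libraries. With palmitate its transcript was at 289, 309, 293 and 271 CPM, and with palmitate + IL-1β at 327, 325, 345 and 378 CPM. The 4 groups followed each other without overlap, in the order BSA, IL-1β, palmitate and palmitate + IL-1β. Palmitate raised Nfe2l2 2.31-fold (log2 1.21 ± 0.0602 SE, edgeR adjusted p = 6.72e-15) and IL-1β 1.47-fold (log2 0.56 ± 0.06, edgeR adjusted p = 1.47e-07). With both agents the transcript of the regulator was 2.73-fold above BSA (log2 1.45 ± 0.0604, edgeR adjusted p = 1.04e-16). IL-1β added to palmitate gave a further log2 0.24 ± 0.0587 (edgeR adjusted p = 0.00756), with all 4 libraries of the combination above all 4 of palmitate.

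Hmox1 (ENSMUSG00000005413.9, chr8:75820241-75827217, plus strand), haem oxygenase, which opens the haem ring and releases iron, was at 471, 411, 426 and 446 CPM in BSA. IL-1β libraries held 883, 968, 951 and 885 CPM and palmitate libraries 811, 826, 825 and 789 CPM. With palmitate + IL-1β, Hmox1 reached 1505, 1618, 1720 and 1606 CPM. The lowest library of the combination lay above the highest library of either single agent, and every palmitate library lay below every IL-1β library. IL-1β raised Hmox1 by log2 1.07 ± 0.0473 (edgeR adjusted p = 1.29e-17) and palmitate by log2 0.89 ± 0.0471 (edgeR adjusted p = 2.49e-16). The direct comparison of the agents gave log2 -0.18 ± 0.0467 for palmitate against IL-1β (edgeR adjusted p = 0.00317). With both agents the level was 3.68-fold above BSA.

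Nqo1 (ENSMUSG00000003849.9, chr8:108113835-108129934, minus strand), the quinone reductase, was at 417, 458, 415 and 404 CPM in BSA and at 447, 438, 445 and 414 CPM with IL-1β. Palmitate libraries stood at 526, 517, 518 and 513 CPM and libraries of palmitate + IL-1β at 532, 505, 587 and 537 CPM. The BSA and IL-1β libraries overlapped, as did those of palmitate and palmitate + IL-1β, while every library with palmitate lay above every library without it. IL-1β against BSA gave log2 0.04 ± 0.0459 with a 95% interval of -0.05 to 0.14 (edgeR adjusted p = 0.621), and its sign turned under upper-quartile normalization (log2 -0.005431). Palmitate raised Nqo1 by log2 0.29 ± 0.0458 (edgeR adjusted p = 4.91e-06), the smallest palmitate effect among the 10 genes.

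The thioredoxin and peroxiredoxin arm was represented by Txnrd1, the NADPH-dependent thioredoxin reductase, Srxn1, the sulfiredoxin that repairs overoxidised peroxiredoxins, and Prdx1, a peroxiredoxin that reduces peroxides. Txnrd1 (ENSMUSG00000020250.12, chr10:82669785-82733546, plus strand) was at 226, 213, 228 and 226 CPM in BSA and 432, 443, 461 and 449 CPM in IL-1β. It stood at 487, 489, 494 and 479 CPM in palmitate and 759.6, 815, 807 and 807 CPM in palmitate + IL-1β. The groups of Txnrd1 did not overlap, and the gap between the single agents was the narrowest. Relative to BSA, Txnrd1 rose by log2 1.00 ± 0.0399 with IL-1β (edgeR adjusted p = 1.07e-18) and by log2 1.13 ± 0.0399 with palmitate (edgeR adjusted p = 8.53e-21). With both agents the rise was log2 1.84 ± 0.0405 (edgeR adjusted p = 2.35e-26).

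Srxn1 (ENSMUSG00000032802.9, chr2:151947436-151957687, plus strand) was at 148, 154, 166 and 155 CPM in BSA and 368, 394, 415 and 400 CPM in IL-1β. Its level was 463, 459.5, 457 and 418 CPM in palmitate and 848, 923, 893 and 842 CPM in palmitate + IL-1β. Again no groups overlapped, although palmitate replicate 12 came close to the highest IL-1β library. The rise was 2.53-fold with IL-1β (edgeR adjusted p = 6.36e-20), 2.89-fold with palmitate (edgeR adjusted p = 3.32e-22) and 5.63-fold with both (log2 2.49 ± 0.0494, edgeR adjusted p = 1.34e-27).

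Prdx1 (ENSMUSG00000028691.13, chr4:116532123-116558398, plus strand) was at 439, 443, 514 and 445 CPM in BSA and 514, 508, 532 and 521 CPM in IL-1β. Palmitate libraries held 689, 669.7, 662 and 666 CPM and those with both agents 819.5, 864, 849.9 and 733 CPM. BSA replicate 3 lay within the range of the IL-1β libraries, and the other BSA libraries lay below it. For IL-1β the change was log2 0.17 ± 0.0498 (edgeR adjusted p = 0.0161). That call was lost when BSA replicate 1, 2 or 4 or IL-1β replicate 7 was left out (edgeR adjusted p = 0.0863, 0.0728, 0.0562 and 0.06) and under upper-quartile normalization (edgeR adjusted p = 0.0673). Palmitate raised Prdx1 by log2 0.55 ± 0.0499 (edgeR adjusted p = 1.33e-10) and both agents by log2 0.83 ± 0.05 (edgeR adjusted p = 4.98e-15), with all 4 libraries of each group above all 4 BSA libraries.

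Glutathione synthesis was covered by Slc7a11, the cystine importer, and by Gclc and Gclm, the catalytic and the modifier subunit of the ligase that joins glutamate and cysteine. Slc7a11 (ENSMUSG00000027737.11, chr3:49846975-50398070, minus strand) was at 44.5, 49.1, 54.9 and 47.4 CPM in BSA and 231, 249.6, 271 and 281 CPM in IL-1β. It was at 396, 397, 359.9 and 375 CPM in palmitate and 721, 745, 892 and 691 CPM in palmitate + IL-1β. BSA was far below the other groups, and none of the groups overlapped. The rise was 5.27-fold with IL-1β (log2 2.40 ± 0.0856, edgeR adjusted p = 9.93e-13), 7.81-fold with palmitate (log2 2.97 ± 0.0869, edgeR adjusted p = 9.16e-15) and 15.6-fold with both (log2 3.96 ± 0.09, edgeR adjusted p = 1.56e-16). These were the largest changes against BSA among the 10 genes in each of the 3 comparisons.

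Gclc (ENSMUSG00000032350.10, chr9:77661797-77701770, plus strand) stood at 78.3, 80.3, 88.2 and 79.6 CPM in BSA and 128, 129.8, 133 and 137 CPM in IL-1β. Levels in palmitate were 161, 159, 157 and 151 CPM and in palmitate + IL-1β 232, 239, 229.7 and 228 CPM. Its partner Gclm (ENSMUSG00000028124.16, chr3:122039126-122065061, plus strand) was at 86.3, 87.1, 96.5 and 89.4 CPM in BSA and 184, 181, 189 and 192 CPM in IL-1β. For each subunit, all 4 IL-1β libraries lay above all 4 BSA libraries. Gclm was at 270.4, 253, 243 and 256 CPM in palmitate and 382, 398, 382 and 382 CPM in palmitate + IL-1β. Against BSA, Gclc rose by log2 0.69 ± 0.0425 with IL-1β, 0.94 ± 0.0424 with palmitate and 1.51 ± 0.0426 with both (edgeR adjusted p = 6.58e-14, 3.74e-18 and 1.56e-23). The modifier subunit Gclm rose more in each comparison, by log2 1.05 ± 0.0439, 1.51 ± 0.0441 and 2.10 ± 0.0446 (edgeR adjusted p = 3.38e-18, 5.36e-23 and 8.87e-27), although the difference between the subunits was not tested. No groups of either subunit overlapped.

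Osgin1 (ENSMUSG00000074063.11, chr8:120152470-120173000, plus strand), an oxidative stress induced growth inhibitor, was at 7.84, 8.34, 7.02 and 7.73 CPM in BSA and 23.3, 24, 22.2 and 23.5 CPM in IL-1β. It was at 12, 11.7, 13.4 and 14.1 CPM in palmitate and 31.7, 31.6, 32.6 and 30.2 CPM in palmitate + IL-1β. Its groups did not overlap, and the order of the agents was the reverse of that of most genes, with every IL-1β library above every palmitate library. IL-1β raised Osgin1 3-fold (log2 1.58 ± 0.0699, edgeR adjusted p = 1.29e-17) and palmitate 1.64-fold (log2 0.71 ± 0.0725, edgeR adjusted p = 1.48e-09). Palmitate against IL-1β gave log2 -0.87 ± 0.0656 (edgeR adjusted p = 2.72e-12).

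Counted over the 10 genes, all 10 were higher with palmitate than with BSA and 0 lower (edgeR adjusted p under 0.05), where 19.8% of the 16306 genes tested were higher and 17.5% lower. With IL-1β, 9 were higher, all but Nqo1, and 0 lower, beside 10.1% of all genes higher and 4.97% lower. With palmitate + IL-1β, 10 were higher and 0 lower, beside 24.8% and 22.5%. These 3 comparisons share the 4 BSA libraries and are given side by side for that reason. Because the genes were chosen with earlier results of these data known, the shares over all genes are no independent yardstick for them. The median log2 fold change of the 10 genes was 1.03 with palmitate, 1.03 with IL-1β and 1.86 with both, while the median of all genes tested was -0.00303, -0.00486 and 0.0017. No gene of the 10 was lower at an unadjusted p under 0.05 in edgeR or by DESeq2 in any of the 3.

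Adding IL-1β to palmitate raised 9 of the 10 genes, all but Nqo1, and lowered 0, where 5.71% of all genes were higher and 4.1% lower. Nqo1 gave log2 0.06 ± 0.0457 (edgeR adjusted p = 0.492) with overlapping libraries, and ran from log2 0.018 to 0.0876 with a library left out. Adding palmitate to IL-1β raised all 10 and lowered 0, beside 18.9% higher and 16.1% lower. In palmitate against IL-1β, 8 genes were higher and 2 lower, Hmox1 and Osgin1, beside 16.5% and 15.2% of all genes. Among the 8, the difference ran from log2 0.13 ± 0.0393 for Txnrd1 (edgeR adjusted p = 0.013) to 0.65 ± 0.0594 for Nfe2l2 (edgeR adjusted p = 2.27e-09). DESeq2 gave the same counts in each of these comparisons, and no gene of the 10 was lower at an unadjusted p under 0.05 in edgeR on adding either agent to the other.

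Additivity was read on 2 scales. On the log2 scale, the interaction is the log2 fold change with both agents less the sum of the log2 fold changes of the single agents, so that a value below 0 means a fold smaller than the product of the single folds. The interaction was below 0 past the threshold for 5 of the 10 genes and above 0 for 0 (edgeR), where 1.83% of all genes were below and 0.159% above. At an unadjusted p under 0.05, 7 were below 0 and 0 above, beside 6.59% and 3.64% of all genes, and DESeq2 also called 5 below and 0 above. All genes tested include many called with neither agent, and genes that responded to each agent were not counted apart. Slc7a11 had the largest, at log2 -1.40 ± 0.114 (edgeR adjusted p = 4.15e-07) where the single log2 changes summed to 5.36 and the change with both was 3.96. Gclm had -0.46 ± 0.0608 (edgeR adjusted p = 4.8e-06), Srxn1 -0.38 ± 0.0662 (edgeR adjusted p = 0.000458) and Txnrd1 -0.29 ± 0.0556 (edgeR adjusted p = 0.00156). For Nfe2l2 the interaction was -0.32 ± 0.0838 (edgeR adjusted p = 0.0475). That call was lost under upper-quartile normalization (edgeR adjusted p = 0.154), with at least 10 counts required in every library (edgeR adjusted p = 0.0719) and with any of 12 of the 16 libraries left out. The edgeR adjusted p was 0.0951, 0.107 and 0.0802 without BSA replicate 1, 2 or 3 and 0.0975, 0.0996 and 0.0881 without IL-1β replicate 5, 6 or 7. It was 0.0879, 0.133 and 0.0921 (edgeR adjusted p) without palmitate replicate 9, 10 or 11 and 0.13, 0.12 and 0.0748 without palmitate + IL-1β replicate 13, 14 or 15. Where the call was lost, the interaction of Nfe2l2 was about as large, at log2 -0.328 to -0.267. The call held when BSA replicate 4, IL-1β replicate 8, palmitate replicate 12 or palmitate + IL-1β replicate 16 was left out. Leaving out the deepest library, palmitate replicate 10, changed no other call on the 10 genes.

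For the other 5 genes the interaction did not pass the threshold. Osgin1 had log2 -0.27 ± 0.095 (95% interval -0.46 to -0.0738, edgeR adjusted p = 0.211) and Gclc -0.13 ± 0.0592 (-0.25 to -0.00816, edgeR adjusted p = 0.437). Hmox1 had -0.08 ± 0.066 (-0.22 to 0.0509, edgeR adjusted p = 0.745) and Prdx1, above 0, 0.11 ± 0.0703 (-0.0344 to 0.25, edgeR adjusted p = 0.66). With a library left out, the interaction ran from log2 -0.117 to -0.0539 for Hmox1 and from 0.052 to 0.158 for Prdx1. Under the other alternatives that of Hmox1 ran from -0.0886 to -0.0471. Nqo1 had 0.02 ± 0.0648 (-0.11 to 0.15, edgeR adjusted p = 0.965). Its sign turned without BSA replicate 2, IL-1β replicate 8 or palmitate + IL-1β replicate 15, at log2 -0.02037, -0.004731 and -0.0233.

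On the linear scale, the excess is the mean CPM with both agents less the level that the single differences from BSA would sum to, with an SE from the spread within the 4 groups and no test. The excess was above 0 for 9 of the 10 genes and more than 2 SE above 0 for 8. Of all genes tested, 53% were above 0 and 6.1% more than 2 SE above it. Here too, many of all genes were called with neither agent, and genes that responded to each agent were not counted apart. With a library left out, the number above 0 ran from 8 to 10. Hmox1 had the largest excess, 316 ± 51.8 CPM (SE). Its difference from BSA was 1174 CPM with both agents, against 375 CPM with palmitate and 483 CPM with IL-1β, or 137% of their sum. For Slc7a11 the excess was 171 ± 46.8 CPM, with an observed mean of 762 CPM, between the additive level of 591 CPM and the product level of 2012 CPM. Srxn1 lay likewise between its additive level (688 CPM) and its product level (1138 CPM), with 877 CPM observed and an excess of 189 ± 24.3 CPM. Hmox1, Txnrd1, Gclc, Gclm and Osgin1 also had an observed mean between the additive and the product level.

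The other excesses were 87.1 ± 14.8 CPM for Txnrd1, 33.6 ± 7.76 CPM for Gclm, 24.9 ± 4.33 CPM for Gclc and 3.25 ± 0.894 CPM for Osgin1, each more than 3 SE above 0. Prdx1 had 86.4 ± 35.3 CPM and was observed at 817 CPM, above its product level of 757 CPM. Within 2 SE of additivity were Nqo1, at 9.52 ± 22.2 CPM, and Nfe2l2, at -6.27 ± 17 CPM or 97.2% of the summed single effects. With a library left out, the excess ran from -6.08 to 21.2 CPM for Nqo1 and from -17.7 to 0.0954 CPM for Nfe2l2.

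**Figure D2:**
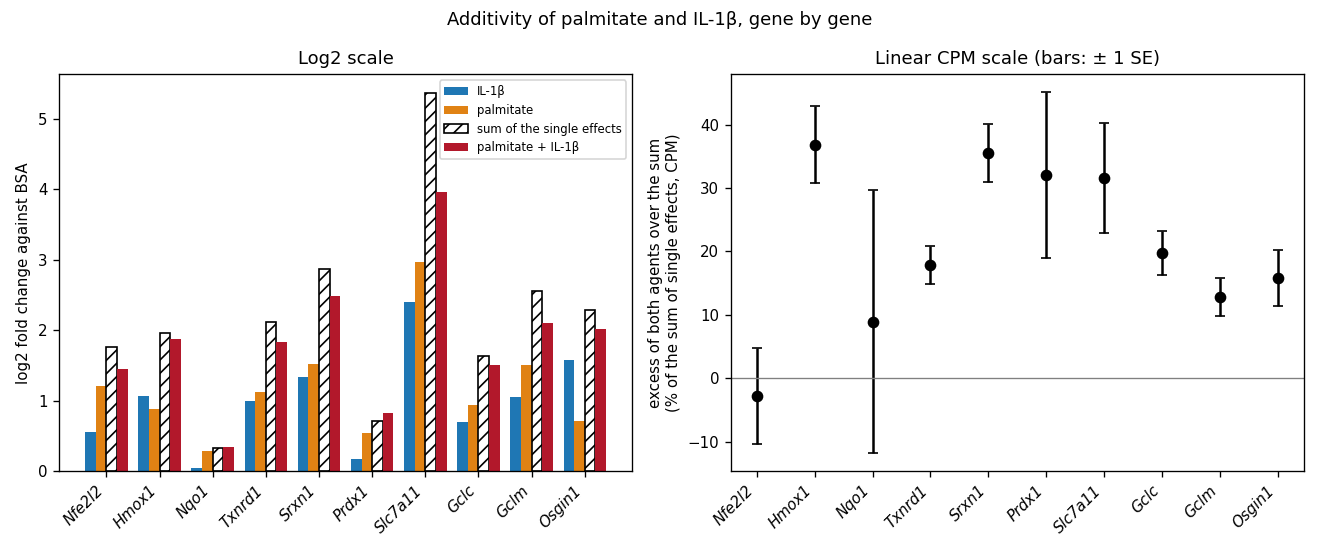
Left, log2 fold change against BSA of the 10 genes with IL-1β, with palmitate, as the sum of these single changes and with palmitate + IL-1β (bars start at 0). Right, excess of both agents over the sum of the single effects on the CPM scale, as a percentage of that sum (points, bars ± 1 SE from the 4 groups of 4 libraries). Slc7a11 shows the widest gap between sum (5.36) and combination (3.96) on the left, and Nfe2l2 and Nqo1 have bars that cross 0 on the right.

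Levels of different genes were compared per length, as CPM per kb of the canonical GENCODE transcript. In BSA, Hmox1 was the most abundant at 278 ± 16.3 CPM per kb, followed by Prdx1 at 172 ± 13.5 and Nqo1 at 159 ± 8.78 CPM per kb, whose libraries overlapped. Slc7a11 at 5.31 ± 0.473 and Osgin1 at 3.85 ± 0.27 CPM per kb were the least abundant. With palmitate + IL-1β, Hmox1 reached 1020 ± 55.9 CPM per kb and Slc7a11 82.6 ± 9.66 CPM per kb, which placed Slc7a11 above Gclc (67.4 ± 1.4) and Gclm (60.8 ± 1.27) and below Nfe2l2 (95.7 ± 6.85), although the highest Slc7a11 library, replicate 15, lay within the range of the Nfe2l2 libraries. Neighbours in the order that overlapped were Gclc and Srxn1 in BSA, Srxn1 and Nfe2l2 as well as Gclm and Slc7a11 in IL-1β, and Slc7a11 and Gclm in palmitate.

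The partners and repressors of NRF2 were read from a list of 11 genes, all tested. With palmitate, 8 were called higher and 1 lower (72.7% and 9.09%, beside 19.8% and 17.5% of all genes tested). With IL-1β, 6 were higher and 0 lower in edgeR (54.5% and 0%, beside 10.1% and 4.97%), where 2 were lower at an unadjusted p under 0.05 (beside 11.3% of all genes) and 0 by DESeq2. With both agents, 8 were higher and 1 lower (72.7% and 9.09%, beside 24.8% and 22.5%). Their median log2 fold change was 0.365, 0.201 and 0.518, beside -0.00303, -0.00486 and 0.0017 over all genes tested. Sqstm1, the autophagy receptor that binds KEAP1, was at 1028, 1035, 984 and 958 CPM in BSA, 1492, 1620, 1673 and 1471 CPM in IL-1β, 2276, 2400, 2443 and 2224 CPM in palmitate and 2940, 2927, 3279 and 3108 CPM in both. Its groups did not overlap, and it rose by log2 1.22 ± 0.048 with palmitate, 0.64 ± 0.0475 with IL-1β and 1.61 ± 0.0485 with both (edgeR adjusted p = 1.19e-19, 5.52e-12 and 8.24e-23). Keap1 was at 43.4 ± 1.17 CPM in BSA and 55.9 ± 2.01 CPM in palmitate (log2 0.36 ± 0.0481, edgeR adjusted p = 2.28e-07), and IL-1β alone gave log2 0.05 ± 0.049 (edgeR adjusted p = 0.581). The small MAF genes Maff, Mafg and Mafk rose with each agent, without overlap with BSA. Maff rose by log2 1.25 ± 0.067 with palmitate and 1.41 ± 0.0665 with both (edgeR adjusted p = 3.32e-16 and 9.39e-18), Mafg by 0.60 ± 0.0451 and 1.26 ± 0.0451 (edgeR adjusted p = 1.19e-12 and 8.12e-21) and Mafk by 0.42 ± 0.0558 and 0.65 ± 0.0554 (edgeR adjusted p = 2.48e-07 and 1.93e-11).

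Bach1, a repressor that competes at the same elements, rose by log2 0.21 ± 0.0408 with palmitate, 0.36 ± 0.0408 with IL-1β and 0.62 ± 0.0406 with both (edgeR adjusted p = 0.000119, 8.85e-08 and 3.05e-14). Its relative Bach2 was at 2.12 ± 0.214 CPM in BSA and was not called in any of the 7 comparisons. Btrc, which encodes a ubiquitin ligase adaptor acting on NRF2, was the 1 lower gene, at log2 -0.24 ± 0.0569 with palmitate and -0.33 ± 0.0572 with both (edgeR adjusted p = 0.00118 and 1.66e-05). Cul3 rose by log2 0.18 ± 0.0408 with palmitate (edgeR adjusted p = 0.000789), Nfe2l1, a related factor, by log2 0.46 ± 0.0381 (edgeR adjusted p = 1.7e-11), and Rbx1 gave log2 -0.10 ± 0.0584 (edgeR adjusted p = 0.189). For each of these called differences from BSA, all 4 libraries lay on the same side of all 4 BSA libraries. Such separation often goes with a call, and its share over all genes was not counted. In the interaction, Maff (-0.49 ± 0.093, edgeR adjusted p = 0.00147) and Sqstm1 (-0.25 ± 0.0669, edgeR adjusted p = 0.0384) were the 2 genes of the list called below 0 (18.2%, beside 1.83% of all genes tested).

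A further 56 genes of the pathway's roles were all tested. With palmitate, 20 were called higher and 8 lower (35.7% and 14.3%, beside 19.8% and 17.5% of all genes tested). With IL-1β the numbers were 15 and 3 (26.8% and 5.36%, beside 10.1% and 4.97%), and with both agents 24 and 10 (42.9% and 17.9%, beside 24.8% and 22.5%). The median log2 fold change was 0.0557, 0.0167 and 0.0278, beside -0.00303, -0.00486 and 0.0017 over all genes tested. The 5 largest rises with both agents were those of Gsta3, a glutathione transferase at 1.28 ± 0.0796 CPM in BSA (log2 1.92 ± 0.137), the exporter Abcc4 (1.61 ± 0.0436), the carbonyl reductase Cbr3 (1.59 ± 0.087), the exporter Abcc1 (1.55 ± 0.051) and the peroxiredoxin Prdx6 (1.54 ± 0.0447), at edgeR adjusted p of 2.83e-13, 5.31e-24, 1.56e-14, 8.22e-22 and 3.35e-23. The 5 largest falls among the 10 lower genes were those of Idh1 (log2 -0.65 ± 0.0447), Txnip, an inhibitor of thioredoxin, (-0.45 ± 0.0534), the glutathione peroxidase Gpx1 (-0.38 ± 0.0472), the UDP-glucose dehydrogenase Ugdh (-0.28 ± 0.0459) and the peroxidase Gpx8 (-0.27 ± 0.0457), at edgeR adjusted p of 1.18e-13, 2.82e-08, 6.51e-08, 6.31e-06 and 9.36e-06. For these 10 genes all 4 libraries with both agents lay beyond all 4 BSA libraries. They were picked for large called changes in this same comparison, so the separation is no further evidence. Its share over all genes was not counted.

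By role, with both agents, the glutathione genes had 9 of 18 higher (50%) and 2 lower (11.1%), where 24.8% of all genes tested were higher and 22.5% lower. The thioredoxin and peroxiredoxin genes had 2 of 11 higher and 2 lower (18.2% each), and the NADPH genes 4 of 6 higher (66.7%) and 1 lower (16.7%). The haem and iron genes had 4 of 8 higher (50%) and 2 lower (25%), and the detoxification genes 5 of 13 higher (38.5%) and 3 lower (23.1%). Slc40a1, the iron exporter ferroportin, was at 90.2, 96.5, 100.3 and 82.8 CPM in BSA and 58.3, 55.4, 57.5 and 58 CPM in palmitate (log2 -0.69 ± 0.0519, edgeR adjusted p = 1.34e-12). With both agents it was at 78.3 ± 3.57 CPM, and with IL-1β at 102 ± 5.36 CPM. It was the 1 gene of the 56 called with an interaction above 0 (log2 0.31 ± 0.0728, edgeR adjusted p = 0.0125), and Abcc1 (-0.30 ± 0.0706) and Abcc4 (-0.35 ± 0.0603) were the 2 called below 0 (edgeR adjusted p = 0.0125 and 0.000313). These were 1.79% above and 3.57% below, beside 0.159% and 1.83% of all genes tested.

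Slc7a11 is also known as a target of ATF4, the factor of the integrated stress response. Of 12 genes of that response, 4 were called higher and 2 lower with palmitate (33.3% and 16.7%, beside 19.8% and 17.5% of all genes tested) and 6 and 1 with both agents (50% and 8.33%, beside 24.8% and 22.5%). With IL-1β, 3 were higher and 0 lower in edgeR (25% and 0%, beside 10.1% and 4.97%), where 1 was lower at an unadjusted p under 0.05 (beside 11.3% of all genes) and 0 by DESeq2. Their median log2 fold change was 0.0518 with palmitate, 0.0235 with IL-1β and 0.128 with both, beside -0.00303, -0.00486 and 0.0017 over all genes tested. Atf4 itself was at 297 ± 6.38 CPM in BSA, 303 ± 17.3 CPM in IL-1β, 301 ± 4.96 CPM in palmitate and 329.6 ± 17.8 CPM in both, which was higher than BSA with all 4 libraries above all 4 (log2 0.15 ± 0.0444, edgeR adjusted p = 0.00605). It was not called with palmitate (log2 0.02 ± 0.0444, edgeR adjusted p = 0.758) or IL-1β (log2 0.03 ± 0.0445, edgeR adjusted p = 0.731) alone. Cebpb had the largest rise of the 12 with palmitate (log2 1.67 ± 0.0494, edgeR adjusted p = 7.46e-23), and Atf3 the largest with IL-1β (log2 2.07 ± 0.081, edgeR adjusted p = 6.51e-19), while palmitate against BSA gave log2 0.17 ± 0.0907 for Atf3 (edgeR adjusted p = 0.145). The 2 genes lower with palmitate were Chac1 (log2 -0.44 ± 0.0544, edgeR adjusted p = 5.97e-08) and Vldlr (log2 -0.24 ± 0.0426, edgeR adjusted p = 3e-05), each with all 4 libraries below all 4 BSA libraries.

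The genes nearest to the 3 members whose largest log2 fold change against BSA in any of the 3 comparisons was highest were sought among 9055 other genes by the root mean square difference of the 3 log2 fold changes against BSA, which share the BSA libraries. Slc7a11 was nearest to Slfn2 (difference 0.402) and Ccl7 (0.5), Srxn1 to Plk2 (0.207) and Csf1 (0.216), and Gclm to Birc3 (0.155) and Arhgap22 (0.173). Slfn2 had log2 fold changes of 2.99 with palmitate, 1.86 with IL-1β and 3.52 with both, and Birc3 of 1.46, 1.01 and 1.84.

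Reads of some members can be shared with other genes. At 95% identity or more, 34.9% of the Prdx1 transcript matched another gene, Gm64945. Its counts are uncertain for that reason, by an amount that was not tested. For Slc7a11 5.67% of the transcript matched, spread over 1212 genes, for Nqo1 5.05%, for Gclm 2.06% and for Srxn1 1.71%, and the other 5 matched none. Annotated genes overlapped 5 members on the same strand (Nfe2l2, Txnrd1, Slc7a11, Gclm and Osgin1). On the other strand they overlapped 8 members, all but Hmox1 and Nqo1, which had no overlapping gene. The part of these genes in the counts was not tested.

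Promoter sequences were taken from RefSeq (GRCm38.p6) as windows from 250 bases before to 50 after a gene's start, and 8 of the 10 members had an entry, all but Hmox1 and Gclc. Each window matched GRCm39 at exactly 1 place, and coordinates are those of the match. The core of the antioxidant response element was searched on both strands as TGACNNNGC. Of all 32851 windows 12.4% held it, as did 14% of the 27025 genes with a window, and 5 of the 8 members held it: Nfe2l2, Txnrd1 (in 1 of its 3 windows), Srxn1, Prdx1 and Gclm. Capitals mark the matched letters in the sequences of these 5, read along the strand of the gene. The match of Prdx1 overlaps a TGANTCA motif, the letters of an AP-1 element. These letters were in 7.81% of all windows, in 8.97% of the genes with a window and in 3 of the 8 members, with 2 copies each in Prdx1 and Srxn1 and 1 in Osgin1.
Nfe2l2, chr2:75535229-75535257, minus strand: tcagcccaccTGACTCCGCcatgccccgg
Txnrd1, chr10:82694938-82694966, plus strand: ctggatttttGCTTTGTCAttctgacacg
Srxn1, chr2:151947462-151947490, plus strand: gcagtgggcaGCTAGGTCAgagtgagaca
Prdx1, chr4:116542653-116542681, plus strand: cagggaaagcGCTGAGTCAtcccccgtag
Gclm, chr3:122039047-122039105, plus strand: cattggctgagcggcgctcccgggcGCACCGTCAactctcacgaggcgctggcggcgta

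The matches began 240 bases before the RefSeq start of Nfe2l2, 92 before that of Txnrd1, 133 before that of Prdx1 and 134 before that of Gclm, and 29 bases after that of Srxn1, within its exon. The stretch of Nfe2l2 lies upstream of the gene in an exon of the lncRNA E030042O20Rik and of Gm75256. Those of Txnrd1 and Prdx1 lie inside the annotated gene and outside its own exons, in exons of Gm38560 and AV051173, and that of Gclm lies upstream of the gene and outside exons. The windows of Slc7a11, Nqo1 and Osgin1 did not hold TGACNNNGC. In the Slc7a11 window the letters TGATGNAA, which C/EBP-ATF factors are known to bind, occurred at 2 places, on opposite strands, where 3.97% of all windows held them and no other member did.
Slc7a11, chr3:50398077-50398153, minus strand, capitals marking both matches: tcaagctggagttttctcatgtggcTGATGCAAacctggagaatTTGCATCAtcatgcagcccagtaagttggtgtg
A match is a description of letters and not of binding.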

How the data were processed

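Gene counts of 16 libraries, 4 in each of 4 groups taken from the labels, were used as deposited. The authors trimmed reads (Trimmomatic 0.39), aligned them to GRCm39 (STAR 2.7.10a, GENCODE vM33) and counted them per gene and strand (HTSeq 2.0.9). The library kit is described as stranded total RNA in the labels and as oligo(dT) SMART-Seq in the methods. The 5 rows that name no gene (a median of 19% of counts) were left out. Ddit3 stood on 2 rows, of which the one at 0 throughout was dropped.

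Counts were analysed with edgeR 4.0.16 and limma 3.58.1 in R 4.3.3, with TMM factors, filterByExpr (minimum count 10, total 15) and 1 quasi-likelihood fit over all 16 libraries. There were 7 comparisons, and p was adjusted by Benjamini-Hochberg over all 16306 genes tested at a threshold of 0.05. Linear additivity used group means of CPM, without a test. The fits were tested on simulated data that held palmitate effects and no interaction. Recovery of an interaction and the linear excess were not tested there. Alternatives were DESeq2 1.42.0 and its size factors, upper-quartile normalization, other filters, only the 8 libraries compared, no mitochondrially encoded genes, and leaving out each library. The members and lists were chosen with earlier results of these data known.

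All 10 members and all 11 regulators were named. From the pathway and ATF4 lists, genes were named from up to 5 higher and 5 lower genes past the threshold in each comparison against BSA, by size of change at an average log2 CPM of at least 1. Nearest genes needed an average log2 CPM of at least 3. Gene positions and transcript lengths come from GENCODE vM39. Shared sequence was found with BLAST+ 2.17.0, windows were matched with Python 3.11.15 and figures drawn with matplotlib 3.10.9. Intervals cover the model's error, and floors of 3 counts cover counting error only.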

Additional observations from a re-analysis of the deposited data

Results flagged for a closer look

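A library of a group of 4 was taken to stand apart by Dixon's test at the 95% level, on its gap to the nearest other library over the range. Of 40 groups (10 genes in 4 groups), 5 held such a library, where chance flags about 1 in 20 groups. Txnrd1 was at 213.2 CPM in BSA replicate 2 (others 225.8 to 227.9) and at 759.6 CPM in palmitate + IL-1β replicate 13 (others 806.8 to 814.8). Srxn1 was at 417.8 CPM in palmitate replicate 12 (others 456.6 to 463.4), Prdx1 at 514.3 CPM in BSA replicate 3 (others 439 to 444.8) and Gclm at 397.9 CPM in palmitate + IL-1β replicate 14 (others 381.6 to 382.1).

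For 5 genes the edgeR interaction test found a smaller log2 change from palmitate in cells that also had IL-1β than in cells without it. The difference was -0.3155 for Nfe2l2, -0.2885 for Txnrd1, -0.3768 for Srxn1, -1.402 for Slc7a11 and -0.4592 for Gclm. For Nfe2l2 (edgeR adjusted p = 0.0475) the call was lost in 14 of 21 alternatives, at log2 -0.328 to -0.267 and edgeR adjusted p up to 0.154. For the other 4 genes it held in all 21.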

How the results depend on the processing

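Of 1530 log2 fold changes of the 10 genes recomputed under the alternatives, 1507 kept their direction and their side of the threshold, 19 fell short of it, 0 newly passed it and 4 changed sign. These 4 were all of Nqo1: IL-1β against BSA under upper-quartile normalization (log2 -0.005431), and the interaction, which ran from -0.0233 to 0.04806 with a library left out (-0.02037 without BSA replicate 2, -0.004731 without IL-1β replicate 8, -0.0233 without palmitate + IL-1β replicate 15). The cause was not tested. The 19 belonged to Prdx1 under IL-1β (edgeR adjusted p up to 0.0863) and to the Nfe2l2 interaction (edgeR adjusted p = 0.154 under upper-quartile normalization, 0.0719 with at least 10 counts in every library, up to 0.133 with a library left out). The number of the 10 genes higher with IL-1β ran from 8 to 9 and that with an interaction below 0 from 4 to 5. In the other comparisons and directions the number of the 10 genes called did not change. The number of all genes called ran from 5167 to 6466 with palmitate (6083 in the report's fit), from 1784 to 2743 with IL-1β (2464) and from 258 to 413 in the interaction (324), and no comparison's number moved by more than 1.5 times. With a library left out, the linear excess ran from -17.7 to 0.0954 CPM for Nfe2l2, above 0 without palmitate + IL-1β replicate 14, and from -6.08 to 21.2 CPM for Nqo1, below 0 without BSA replicate 2 or palmitate + IL-1β replicate 15 (the lowest value). No paired analysis was possible because the groups share no replicate numbers. Each member had at least 184 counts in every library, the lowest being Osgin1 in BSA.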
